A study of Mus musculus with 4 samples.

Results

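The 35 genes described here belong to the type I interferon response, to the sensing of RNA in the cytoplasm and to antigen presentation by class I molecules of the major histocompatibility complex (MHC). They were taken by symbol. Each symbol was matched through the GENCODE M21 annotation of the mouse build GRCm38 to its Ensembl gene identifier, and all 35 were found among the 54838 genes in the count tables. RNA was sequenced from 2 libraries of MLC460, a mouse embryonic stem cell line whose endogenous p300 protein carries the green fluorescent protein mEGFP at its N-terminus, an edit made with CRISPR/Cas9. The comparison group was 2 libraries of the wild-type E14 line (E14Tg2a.4, strain 129/Ola), the cell type and strain that the labels give for both groups. p300 is a histone acetyltransferase and transcriptional coactivator. Both lines were kept on gelatin in medium with 15% serum and 1000 U/ml of the cytokine LIF, and the labels name no infection or interferon treatment. The question put to these genes is how low they are in stem cells and whether the line with tagged p300 expresses them differently. With 1 knock-in line, the tag cannot be told apart from other differences that a derived line carries. The libraries are described as biological replicates with no further detail, so a p-value measures only the spread between these libraries, which may in part be technical.

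Most nucleated cells carry the machinery of the type I interferon response at rest and use it on demand. Double-stranded or viral RNA in the cytoplasm binds the sensors Ddx58 (RIG-I) and Ifih1 (MDA5), which signal through the mitochondrial adaptor Mavs to the transcription factors Irf3 and Irf7, and these switch on the interferon genes. Secreted interferon binds the receptor Ifnar1-Ifnar2, and a complex that holds Stat2 and Irf9 then binds interferon-stimulated response elements in the promoters of effector genes. MHC class I molecules display peptides that the proteasome cuts and the transporter Tap1-Tap2 carries into the endoplasmic reticulum. Embryonic stem cells are known for a weak interferon response and for low MHC class I expression.

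The genes spanned a wide range of levels, from a few reads to among the most abundant of the cells. Expression is given per length as TPM, computed from the counts over the total exon length of each gene, as the mean of all 4 libraries. In this measure 12 of the 35 genes were under 1 TPM, 6 were between 1 and 10 TPM, and 17 were at 10 TPM or more. The median level was 8.43 TPM, against 2.33 TPM over all 21998 protein-coding genes, of which 44.4% were under 1 TPM and 36.5% at 10 TPM or more. The effector genes that interferon induces, such as the Ifit, Mx and Isg15 genes, made up most of the low end. The 17 genes at the high end were the Ifitm genes, Bst2, the class I chains, Tapbp, Mavs, Ddx58, Ifnar1, 3 of the 5 transcription factors and 3 of the 4 enzymes that act on double-stranded RNA. For the knock-in difference, 24 of the 35 genes passed the low-count filter and could be tested, and 0 of the 24 had an adjusted p under 0.05 in edgeR's quasi-likelihood test. Over all 15191 genes tested, 10 passed, which is 0.0658%. By DESeq2 and by limma-voom 0 members passed as well.

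**Figure D1:**
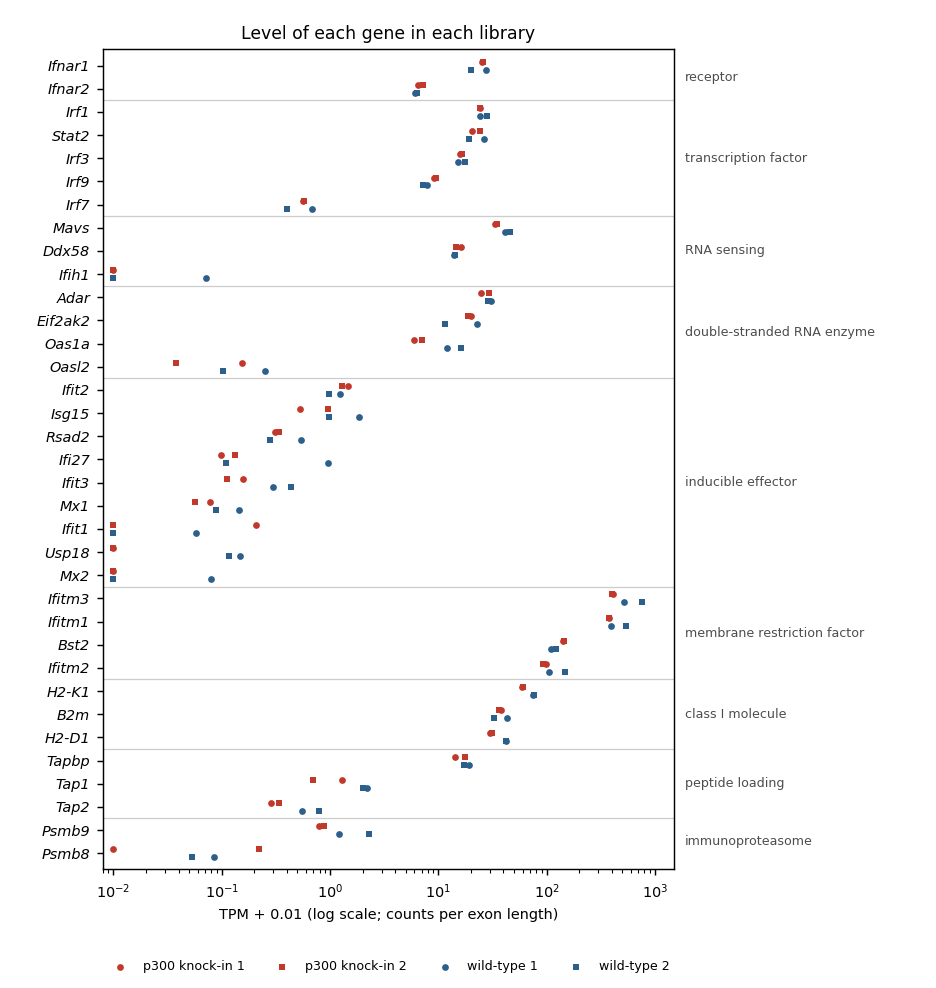
Level of each of the 35 genes in each library, in TPM plus 0.01 on a log axis, with genes grouped by role; red points are knock-in libraries, blue points wild-type libraries, circles the first and squares the second library of a line. The inducible effectors lie at or under 1.23 TPM on average, while the membrane restriction factors lie between 111 and 523 TPM, and points at 0.01 are libraries with 0 counts.

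The libraries held 25266051 and 18946731 counts in genes for the knock-in line, and 26553998 and 21791128 for wild-type. At this depth 3 counts, taken as the limit that a count of 0 allows, came to between 0.109 and 0.161 CPM (counts relative to library size, scaled by the TMM factors), which covers counting error only. The tagged gene, Ep300 (chr15:81585351-81652077), had 181 and 210 CPM in knock-in libraries, against 209 and 210 CPM in wild-type libraries. The log2 fold change was -0.10 with an SE of 0.15 (edgeR adjusted p = 0.804). This count does not read the tag itself, so it checks no label. The second wild-type library stood apart from the other 3. The deviation of its genes from the mean of the libraries followed their GC content with a Spearman rho of 0.65 across genes, against -0.37 and -0.43 in the knock-in libraries and -0.27 in the first wild-type library. Differences are therefore given also with a correction for GC content, which shifted the median log2 fold change of all tested genes to 0.058, against 0.00098 without it. The 12 embryonic stem cell markers, Pou5f1, Sox2 and Nanog among them, summed to 7661 and 7184 CPM in knock-in libraries, against 7019 and 7204 CPM in wild-type libraries, so both lines carried the label's defining transcripts.

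No interferon transcript was measured in appreciable amount. Of 21 interferon genes listed as ligands (Ifnb1, 14 Ifna and Ifnab genes and others of types I, II and III), 20 had 0 counts in all 4 libraries. The exception was Ifne, an interferon of epithelia, with 1 read in the first wild-type library and 0 reads in the other 3. Multimapping reads were not counted, so a 0 in the Ifna genes, a family of copies, may miss shared reads. The receptor chains were present. Ifnar1 (chr16:91485238-91507441), the chain that binds the kinase Tyk2, had 25.1 and 25.7 TPM in knock-in libraries, against 27.9 and 20.2 TPM in wild-type libraries. Ifnar2, which lies near it on chromosome 16 and binds the kinase Jak1, had 6.54 and 7.17 TPM in knock-in libraries, against 6.12 and 6.33 TPM in wild-type libraries. Ifnar2 shares 9.5% of its exon length with the gene model Gm21970 on the same strand. The groups overlapped for Ifnar1, and for Ifnar2 both knock-in libraries were slightly above both wild-type libraries. The log2 fold changes were 0.14 (SE 0.18) for Ifnar1 and 0.19 (SE 0.22) for Ifnar2, with edgeR adjusted p = 0.771 and 0.746.

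The transcription factors were expressed, with Irf7 as the low one. Irf1, which interferon gamma induces, averaged 25.2 TPM, and Stat2 averaged 22.7 TPM. Irf3, the factor held ready in the cytoplasm for the first wave of interferon, averaged 16.3 TPM. Irf9, the DNA-binding partner of Stat2, averaged 8.43 TPM. Irf7, the factor that interferon itself induces and that amplifies the response, averaged 0.544 TPM. These 5 genes therefore ranked above 75.8%, 74.3%, 69.9%, 61.5% and 40.6% of protein-coding genes.

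Of the 5 transcription factors, Irf9 alone had libraries that separated by line. Over all tested genes, both knock-in libraries were above both wild-type libraries in 23.4% and below them in 23.9%. Irf9 (chr14:55603571-55610030) had 15.5 and 15.3 CPM in knock-in libraries, against 12.2 and 12.0 CPM in wild-type libraries. Each pair of libraries was close and both knock-in values were higher. The log2 fold change was 0.34 with an SE of 0.19 and did not pass (edgeR adjusted p = 0.498, and 0.168 with the GC correction). Stat2 had 38.6 and 43.3 CPM in knock-in libraries, against 45.4 and 35 CPM in wild-type libraries. Irf1 had 30.7 and 28.8 CPM in knock-in libraries, against 27.7 and 34.6 CPM in wild-type libraries. In both genes the wild-type pair spanned the knock-in pair. Irf3 had 17.3 and 17.2 CPM in knock-in libraries, against 14.9 and 18.8 CPM in wild-type libraries. Irf7 had 0.657 and 0.642 CPM in knock-in libraries, against 0.726 and 0.454 CPM in wild-type libraries, which rests on 10 to 20 reads a library. The wild-type pair spanned the knock-in pair in these as well. The log2 fold changes of Stat2, Irf1, Irf3 and Irf7 lay between -0.06 and 0.12, with edgeR adjusted p between 0.907 and 0.968.

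Of 19 further genes of interferon signalling, 18 were tested and 0 passed in edgeR, with 1 at an unadjusted p under 0.05 and a median log2 fold change of -0.04. The most abundant of them were Socs3, a feedback inhibitor of LIF and cytokine signalling, with 311 and 295 CPM in knock-in libraries, against 294 and 327 CPM in wild-type libraries, and Stat3, the transcription factor that LIF activates, with 164 and 165 CPM in knock-in, against 161 and 178 CPM in wild-type libraries. Socs1, an inhibitor of the receptor kinases, had the smallest unadjusted p in the list, with 2.83 and 2.84 CPM in knock-in libraries, against 4.03 and 5.99 CPM in wild-type libraries (log2 fold change -0.82, edgeR adjusted p = 0.408).

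The 2 RNA sensors differed widely in level. Ddx58 (chr4:40203773-40239828), the sensor of RNA ends, had 16.3 and 14.7 TPM in knock-in libraries, against 14.1 and 14.2 TPM in wild-type libraries. Ifih1 (chr2:62595798-62646255), the sensor of long double-stranded RNA, had 0 and 0 counts in knock-in libraries, against 4 and 0 counts in wild-type libraries. In 3 of the 4 libraries Ifih1 was thus not detected, which allows up to 0.161 CPM in the shallowest of them. Mavs, the adaptor that both sensors need, had 33.7 and 35 TPM in knock-in libraries, against 41.6 and 45.6 TPM in wild-type libraries. Both knock-in values of Mavs were lower and both knock-in values of Ddx58 were higher, but neither passed, with log2 fold changes of -0.29 (SE 0.17) for Mavs and 0.18 (SE 0.17) for Ddx58 and edgeR adjusted p = 0.513 and 0.681.

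Of the 30 further symbols listed for nucleic acid sensing, 28 named a gene of the files, the other 2 being second names, and 23 were tested. None passed without the GC correction, where their median log2 fold change was -0.01, and 1 passed with it, beside 1.18% of all tested genes. That gene was Aim2, a cytoplasmic sensor of DNA, with 19.1 and 20.2 CPM in knock-in libraries, against 13.0 and 8.67 CPM in wild-type libraries. Its log2 fold change was 0.86 (edgeR adjusted p = 0.277), and 0.70 with the GC correction (adjusted p = 0.0348). Without the correction 2 of the 23 were lower and 1 higher at an unadjusted p under 0.05, beside 7.40% lower and 3.54% higher of all tested genes. Ikbke of this list had 0.534 and 0.535 CPM in knock-in libraries, against 1.67 and 2.27 CPM in wild-type libraries, on 10 to 50 reads a library. The log2 fold change of Ikbke was -1.87 (edgeR adjusted p = 0.184), and -1.78 with the GC correction (adjusted p = 0.0618).

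The enzymes that act on double-stranded RNA included Oas1a, which had the smallest p of all members without the GC correction, while Bst2 had it with the correction. Adar, which edits adenosine to inosine in double-stranded RNA, had 63.6 and 71.4 CPM in knock-in libraries, against 70.9 and 72.5 CPM in wild-type libraries. Eif2ak2 (PKR), the kinase that stops translation when it binds double-stranded RNA, had 32.3 and 29.2 CPM in knock-in libraries, against 33.2 and 18.1 CPM in wild-type libraries. The groups overlapped in both genes, and in Eif2ak2 the second wild-type library alone was low. Their log2 fold changes were -0.09 (SE 0.15) for Adar and 0.26 (SE 0.26) for Eif2ak2, with edgeR adjusted p = 0.841 and 0.705. Adar shares 16.8% of its exon length with Chrnb2 on the opposite strand, and the counts do not separate strands. Oasl2, an Oas-like gene, had 7 and 1 counts in knock-in libraries, against 12 and 4 counts in wild-type libraries, and was not tested.

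Oas1a (chr5:120896256-120907521), which makes the oligoadenylates that switch on RNase L, had 3.57 and 3.96 CPM in knock-in libraries, against 6.50 and 9.49 CPM in wild-type libraries. Both knock-in libraries were below both wild-type libraries, and the wild-type libraries differed from each other more than the knock-in libraries did. The means were 3.77 ± 0.28 CPM in knock-in cells and 8.0 ± 2.1 CPM in wild-type cells (SD, n = 2 each). The log2 fold change was -1.08 (SE 0.27, 95% interval -1.68 to -0.48), and it did not pass after adjustment over all genes (edgeR adjusted p = 0.219). After GC correction the log2 fold change came to -0.94 and the adjusted p to 0.0648. Without the low-count filter, where 1.31% of all genes passed, Oas1a passed with a log2 fold change of -1.10 (edgeR adjusted p = 0.00583), and so did the membrane protein gene Ifitm3 with -0.63 (adjusted p = 0.0440). Over all alternatives tried for Oas1a the log2 fold change lay between -1.34 and -0.66 and the adjusted p between 2.9e-07 and 0.791. Oas1a belongs to a cluster of near-identical Oas1 genes, so reads may be shared among copies and its own count is uncertain. Oas1g of that cluster, the gene with the smallest unadjusted p in the list of further interferon-stimulated genes, had 2.71 and 2.30 CPM in knock-in libraries, against 5.09 and 6.31 CPM in wild-type libraries (log2 fold change -1.18, edgeR adjusted p = 0.190).

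The effectors that viral RNA or interferon induces were low. Of the 9 genes in this group, 7 were under 1 TPM and 2 just above it, with a median of 0.241 TPM, a level that exceeded 35.8% of protein-coding genes. Ifit2, whose protein binds viral RNA, was the only one with enough reads to be tested, with 1.45 and 1.27 TPM in knock-in libraries, against 1.22 and 0.976 TPM in wild-type libraries. Both knock-in libraries were higher, on 26 to 44 reads a library. The log2 fold change was 0.37 with an SE of 0.36 (edgeR adjusted p = 0.694). Isg15, a ubiquitin-like protein attached to other proteins in infected cells, averaged 1.07 TPM, with 3 and 4 counts in knock-in libraries, against 11 and 5 counts in wild-type libraries. Rsad2 (viperin), which makes a chain-terminating nucleotide, had 10 and 8 counts in knock-in libraries, against 18 and 8 counts in wild-type libraries.

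The remaining effectors had at most 11 reads in any library. Ifi27 had 1 and 1 counts in knock-in libraries, against 11 and 1 counts in wild-type libraries, so the first wild-type library held most of its reads. Ifit3 had 2 and 1 counts in knock-in libraries, against 4 and 5 counts in wild-type libraries. Ifit1 had 4 and 0 counts in knock-in libraries, against 1 and 0 counts in wild-type libraries. Ifit1, Ifit2 and Ifit3 lie in 1 cluster on chromosome 19 and encode related RNA-binding proteins. Mx1, a dynamin-like GTPase that traps viral particles, had 2 and 1 counts in knock-in libraries, against 4 and 2 counts in wild-type libraries. Its neighbour Mx2, annotated as a polymorphic pseudogene, had 0 and 0 counts in knock-in libraries, against 2 and 0 counts in wild-type libraries. Usp18, which removes Isg15 from proteins and damps the receptor, had 0 and 0 counts in knock-in libraries, against 3 and 2 counts in wild-type libraries. These reads are at or near the limit of 3 counts, so no fold is given.

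All 11 genes that failed the low-count filter, the 8 effectors together with Ifih1, Oasl2 and the immunoproteasome gene Psmb8, summed to 29 and 20 reads in knock-in libraries, against 72 and 28 reads in wild-type libraries. The first wild-type library was high and the second lay near the knock-in libraries. Over all genes the first wild-type library also had reads in the most genes, 23390. The second had reads in 21858, and the knock-in libraries in 21787 and 21802. A link between the 2 was not tested. When no filter was applied 0 of the 11 passed, 0 had an unadjusted p under 0.05, and their edgeR adjusted p lay between 0.752 and 0.926. A difference in these genes was not detectable at this depth.

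The promoters of Isg15 and Ifit1 are shown because they carry the letters of the interferon-stimulated response element while the genes gave at most 11 reads a library. The RefSeq promoter table for GRCm38.p6 held 30 of the 35 genes in 36 windows, from 250 bases before to 50 bases after a start site. Each sequence below is the 250 bases before the start, 5′ to 3′ on the strand of the gene, for Isg15 (chr4:156200819-156201068, minus strand) and Ifit1 (chr19:34640639-34640888, plus strand). Capitals mark every match, on either strand, to GAAA, any 2 letters, GAAA (the element's core).
Isg15: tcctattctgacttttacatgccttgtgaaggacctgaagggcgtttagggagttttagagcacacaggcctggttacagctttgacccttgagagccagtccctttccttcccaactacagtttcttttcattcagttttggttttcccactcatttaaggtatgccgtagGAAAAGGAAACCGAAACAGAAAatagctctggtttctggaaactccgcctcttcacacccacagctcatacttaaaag
Ifit1: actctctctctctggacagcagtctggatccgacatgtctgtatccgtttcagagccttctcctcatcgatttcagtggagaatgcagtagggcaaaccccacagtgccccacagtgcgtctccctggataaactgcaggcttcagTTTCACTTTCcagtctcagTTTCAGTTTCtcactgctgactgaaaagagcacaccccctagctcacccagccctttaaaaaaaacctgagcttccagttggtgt
Isg15 held 3 overlapping matches, whose first bases lie at -78, -72 and -66 from the start, and Ifit1 held 2, at -104 and -85.

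Such matches were frequent among the genes described here. The core was found in the windows of 13 of the 30 genes, or 43.3%, against 3.99% of all 27025 genes in the table. The shorter core of the gamma-activated site, TTC, any 3 letters, GAA, was found in 10 of the 30 genes, or 33.3%, against 9.55% of all genes. By gene, 4 held both, 19 held at least 1 and 11 held neither. The response element core stood in 5 of the 7 untested genes with a window and in 8 of the 23 tested ones, a difference that was not tested. A match is a string of letters and shows no binding.

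The membrane restriction factors were the most abundant members. These proteins sit in cell membranes, where the Ifitm proteins hinder the fusion of viral envelopes and Bst2 (tetherin) holds budding virus on the cell surface. Ifitm1 and Ifitm3 are also known in the mouse as genes of early germ cells. Ifitm3 averaged 523 TPM and exceeded 98.9% of protein-coding genes, Ifitm1 averaged 422 TPM, Bst2 averaged 129 TPM and Ifitm2 averaged 111 TPM.

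Ifitm3 (chr7:141009586-141010770) had 88.2 and 82.0 CPM in knock-in libraries, against 101 and 159 CPM in wild-type libraries. Both knock-in libraries were lower, and the wild-type libraries were far apart. The log2 fold change was -0.61 (SE 0.21, 95% interval -1.08 to -0.13), which did not pass (edgeR adjusted p = 0.402, and 0.169 with the GC correction). Its adjusted p over all alternatives lay between 4.0e-15 and 1.00. Without the second wild-type library the log2 fold change of Ifitm3 was -0.26, and without the first it was -0.90. Ifitm1 had 130 and 124 CPM in knock-in libraries, against 125 and 182 CPM in wild-type libraries. Ifitm2 had 20.4 and 18.4 CPM in knock-in libraries, against 19.8 and 29.6 CPM in wild-type libraries. In both genes the second wild-type library alone was high, the groups overlapped, and the log2 fold changes were -0.27 (SE 0.19) for Ifitm1 and -0.34 (SE 0.22) for Ifitm2, with edgeR adjusted p = 0.589 and 0.551. The Ifitm genes are close copies in 1 cluster, and Ifitm2 shares 40.9% of its exon length with the gene model Gm45717 on the same strand, so their counts are uncertain.

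Bst2 (chr8:71534255-71537456) had 40.2 and 39.0 CPM in knock-in libraries, against 28.5 and 33.9 CPM in wild-type libraries. Both knock-in libraries were higher than both wild-type libraries, with means of 39.6 ± 0.89 CPM in knock-in cells and 31.2 ± 3.80 CPM in wild-type cells (SD, n = 2 each). The log2 fold change was 0.34 (SE 0.17, edgeR adjusted p = 0.476). After GC correction Bst2 rose by a log2 fold change of 0.56 with an SE of 0.12 (edgeR adjusted p = 0.0414), as the only member to pass there, beside 1.18% of all tested genes. Its adjusted p over all alternatives lay between 0.00160 and 1.00, and its log2 fold change between 0.23 and 0.61.

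The promoters of Oas1a and Bst2 are shown because these 2 genes passed in some settings and not in others, with opposite signs. Capitals mark matches to either core, on either strand. The windows are chr5:120907526-120907775 for Oas1a and chr8:71537473-71537722 for Bst2, both on the minus strand of GRCm38.p6, and each sequence is the 250 bases before the RefSeq start.
Oas1a: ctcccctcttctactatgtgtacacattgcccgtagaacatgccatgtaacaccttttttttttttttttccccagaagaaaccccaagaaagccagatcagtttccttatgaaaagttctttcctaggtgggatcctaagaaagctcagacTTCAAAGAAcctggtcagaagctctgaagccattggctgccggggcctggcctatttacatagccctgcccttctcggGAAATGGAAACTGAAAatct
Bst2: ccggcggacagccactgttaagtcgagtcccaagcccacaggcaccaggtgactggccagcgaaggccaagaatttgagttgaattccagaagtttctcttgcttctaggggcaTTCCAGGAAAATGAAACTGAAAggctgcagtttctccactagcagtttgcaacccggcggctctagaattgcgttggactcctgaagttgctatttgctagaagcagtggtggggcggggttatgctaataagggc
Oas1a held 2 overlapping matches to the response element core, at -20 and -14, and 1 to the gamma-activated site core at -98. Bst2 held 2 overlapping matches to the response element core, at -130 and -124, and 1 to the gamma-activated site core at -136. Both genes held the same numbers of both cores, and a link of the cores to the sign of the log2 fold change was not tested.

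The class I chains were expressed at moderate levels. H2-K1, the classical class I heavy chain of the K locus, averaged 67.8 TPM and exceeded 88.5% of protein-coding genes. H2-D1, the heavy chain of the D locus, averaged 36.3 TPM, and B2m, the light chain that every class I molecule needs, averaged 37.4 TPM. The heavy chains had slightly lower values in knock-in libraries. H2-K1 (chr17:33996017-34000347) had 55.2 and 53.9 CPM in knock-in libraries, against 62.7 and 69.4 CPM in wild-type libraries. H2-D1 (chr17:35262730-35267499) had 24.3 and 24.3 CPM in knock-in libraries, against 31.4 and 33.3 CPM in wild-type libraries. In both genes the knock-in libraries were below both wild-type libraries, as in 23.9% of all tested genes. Neither gene passed, with log2 fold changes of -0.28 (SE 0.16, edgeR adjusted p = 0.512) for H2-K1 and -0.41 (SE 0.17, adjusted p = 0.435) for H2-D1. Corrected for GC content they were -0.08 and -0.20. B2m had 10.3 and 9.37 CPM in knock-in libraries, against 10.6 and 8.63 CPM in wild-type libraries, and the wild-type pair spanned the knock-in pair (log2 fold change 0.03, SE 0.21, adjusted p = 0.968). Class I heavy chain genes are a family of close copies, so some of their reads may have gone uncounted or to a copy.

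The peptide supply was uneven. Tapbp (tapasin), which holds the empty class I molecule at the transporter, averaged 17.2 TPM, while the transporter chains Tap1 and Tap2 averaged 1.54 and 0.480 TPM. Of the immunoproteasome subunits, Psmb9 averaged 1.29 TPM and Psmb8 averaged 0.0823 TPM. Their constitutive counterparts, named here after their values were seen, were abundant: Psmb6, which Psmb9 replaces, averaged 472 TPM, and Psmb5, which Psmb8 replaces, averaged 129 TPM. The third immunoproteasome subunit Psmb10 was not low, at 44.8 TPM beside 128 TPM for its counterpart Psmb7. Nlrc5, the transactivator of class I genes, also named after its value was seen, averaged 0.174 TPM.

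**Figure D2:**
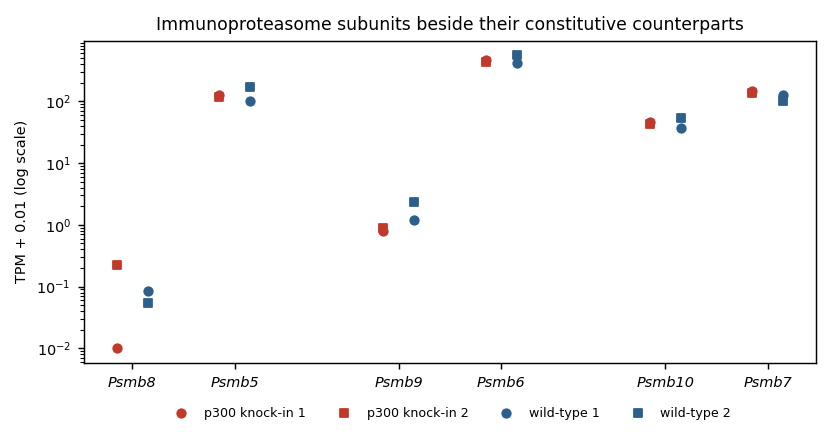
Levels of the 3 immunoproteasome subunits (Psmb8, Psmb9, Psmb10), each left of its constitutive counterpart (Psmb5, Psmb6, Psmb7), in TPM plus 0.01 on a log axis; each point is a library, red for knock-in and blue for wild-type. Psmb8 and Psmb9 lie near or under 2.29 TPM in every library, while Psmb10 and the 3 constitutive subunits lie at 37.6 TPM or more.

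Tap1, Tap2 and Psmb9 had lower values in knock-in than in wild-type libraries, while Psmb8 had too few reads to compare. Psmb9, Tap1, Psmb8 and Tap2 lie side by side on chromosome 17, from 34181987 to 34216321. Tap1 had 2.22 and 1.12 CPM in knock-in libraries, against 3.45 and 3.36 CPM in wild-type libraries. Psmb9 had 0.903 and 0.964 CPM in knock-in libraries, against 1.27 and 2.59 CPM in wild-type libraries. Tap2 had 0.328 and 0.375 CPM in knock-in libraries, against 0.581 and 0.908 CPM in wild-type libraries. In all 3 genes both knock-in libraries were lower than both wild-type libraries, beside 23.9% of all tested genes. These values rest on 21 to 95 reads a library for Tap1, 18 to 57 for Psmb9 and 7 to 20 for Tap2. The log2 fold changes were -1.0 (SE 0.36) for Tap1, -1.03 (SE 0.44) for Psmb9 and -1.06 (SE 0.54) for Tap2, and none passed (edgeR adjusted p = 0.411, 0.447 and 0.480). Corrected for GC content they were -0.78, -0.83 and -0.83, with adjusted p between 0.247 and 0.448. Psmb8 had 0 and 4 counts in knock-in libraries, against 2 and 1 counts in wild-type libraries. Tapbp had 16.5 and 19.4 CPM in knock-in libraries, against 20.2 and 19.2 CPM in wild-type libraries, and these groups overlapped (log2 fold change -0.13, SE 0.18, adjusted p = 0.787). Tapbp shares 24.9% of its exon length with Gm19412 and Tap2 shares 14.1% with Gm15821. Reads in such shared stretches cannot be told apart, and ambiguous reads stayed out of the counts, so these levels may be too low.

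The promoter of Tap1 is shown because Tap1 and Psmb9 run head to head from it and had like log2 fold changes. Tap1 and Psmb9 overlap by 212 bases at their starts, so reads there are ambiguous between them. The window is chr17:34187306-34187555 on the plus strand of GRCm38.p6, the 250 bases before the RefSeq start of Tap1.
Tap1: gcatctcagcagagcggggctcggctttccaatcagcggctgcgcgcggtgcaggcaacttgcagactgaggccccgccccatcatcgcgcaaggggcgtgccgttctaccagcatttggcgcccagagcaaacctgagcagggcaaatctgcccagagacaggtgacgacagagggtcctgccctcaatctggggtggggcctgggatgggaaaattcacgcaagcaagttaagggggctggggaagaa
No match to either core was found in this window, which says only that these letters are not in it.

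**Figure D3:**
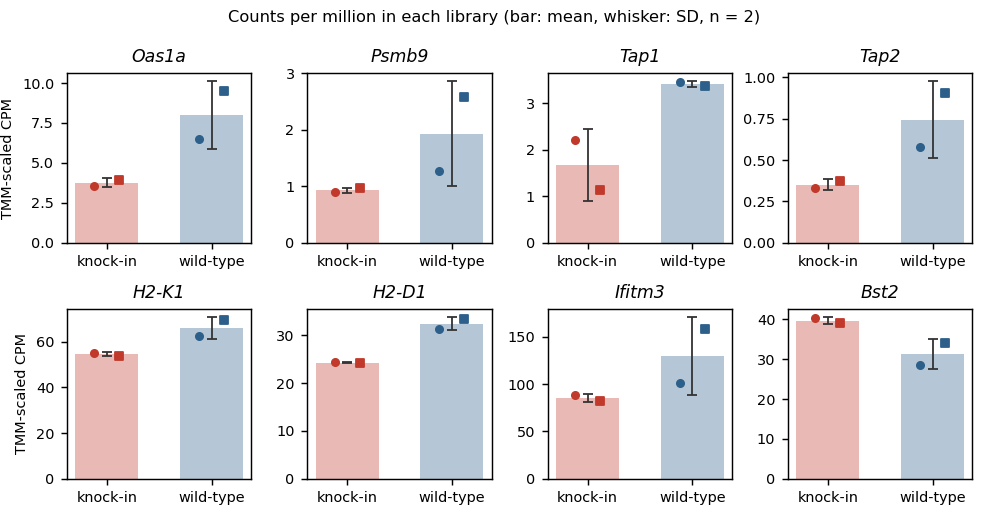
TMM-scaled CPM of 8 members in each library, knock-in left and wild-type right; bars are means, whiskers are SDs of 2 libraries, circles the first and squares the second library. The knock-in points lie below both wild-type points for Oas1a, Psmb9, Tap1, Tap2, H2-K1, H2-D1 and Ifitm3, and above both for Bst2. Mavs, which was also below both, and Irf9, Ifnar2, Ifit2 and Ddx58, which were above both, are not shown.

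Over the 24 tested genes, both knock-in libraries were lower than both wild-type libraries in 8 (Oas1a, Tap1, Tap2, Psmb9, H2-K1, H2-D1, Ifitm3 and Mavs) and higher in 5 (Bst2, Irf9, Ifnar2, Ifit2 and Ddx58). Among all tested genes 23.9% were lower in this sense and 23.4% were higher. The shares of the 24 genes thus lay near those of genes at large for the higher direction and somewhat above them for the lower. An unadjusted p under 0.05 was found for 5 of the 24, all lower (Oas1a, Ifitm3, Tap1, H2-D1 and Psmb9), against 7.40% lower and 3.54% higher of all tested genes. After GC correction it was found for 3 lower (Oas1a, Ifitm3 and Tap1) and 2 higher (Bst2 and Irf9), against 6.96% lower and 10.6% higher of all tested genes. The median log2 fold change was -0.08, with 13 of 24 negative, against 0.00098 and 49.9% negative over all tested genes. With the GC correction the median of the 24 was 0.08 beside the 0.058 of all genes, so the sign of the median depended on the correction.

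**Figure D4:**
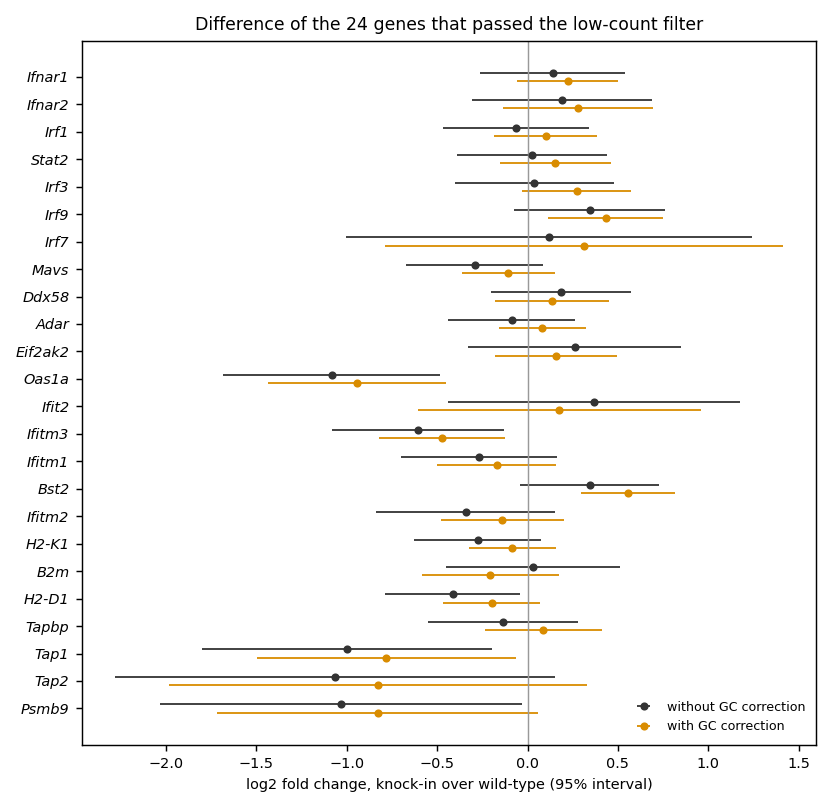
Log2 fold change of the 24 tested genes, knock-in over wild-type, with 95% intervals, without the GC correction (black) and with it (orange). Oas1a, Tap1, Tap2 and Psmb9 lie between -1.08 and -0.78 in both, Bst2 is the only gene whose corrected value of 0.56 passed, and most other intervals cross 0.

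The number of genes that passed depended on which wild-type library was used. Without the first wild-type library 11 members passed: 2 were higher in knock-in cells (Ifnar1 and Eif2ak2), beside 19.0% of all genes tested, and 9 were lower, beside 13.1%. The 9 lower ones were Oas1a, Psmb9, Tap1, Ifitm1, Ifitm2, Ifitm3, H2-K1, H2-D1 and Mavs. In that fit the lone wild-type library was the one that stood apart in GC content, and the spread came from the knock-in pair alone. With the GC correction added, 3 members were higher there (Bst2, Ifnar1 and Eif2ak2), beside 6.02% of all genes, and 3 were lower (Oas1a, Ifitm1 and Ifitm3), beside 4.04%. Without the second wild-type library Oas1a was lower with a log2 fold change of -0.81 (edgeR adjusted p = 0.0394), beside 3.68% of all genes, and Bst2 was higher with 0.46 (adjusted p = 0.0184), beside 0.711%. Bst2 alone passed without that library once GC content was corrected for (log2 fold change 0.61, adjusted p = 0.00160), beside 4.00% of all genes. When a knock-in library was left out, the spread came from the wild-type pair alone. The median log2 fold change of the tested members was then -0.061 without the first knock-in library and -0.17 without the second.

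The summed markers of other cell types had lower values in knock-in libraries, while single primitive endoderm markers went both ways. The 10 fibroblast and feeder cell markers summed to 74.9 and 81.6 CPM in knock-in libraries, against 104 and 121 CPM in wild-type libraries. Fbln1 made up most of that sum, with 52.7 and 57.8 CPM in knock-in libraries, against 67.8 and 81.6 CPM in wild-type libraries. All 5 markers that were tested were lower than in both wild-type libraries, beside the 23.9% of all genes, while Lum was at 0 in all libraries. The 10 primitive endoderm markers summed to 64.5 and 64.5 CPM in knock-in libraries, against 130 and 125 CPM in wild-type libraries, with 2 of 7 tested markers lower, 1 higher and Afp at 0. Col4a1, a basement membrane collagen, made up most of that sum, with 53.3 and 53.9 CPM in knock-in libraries, against 118 and 111 CPM in wild-type libraries. The other 9 summed to 11.2 and 10.5 CPM in knock-in libraries, against 12.7 and 13.3 CPM in wild-type libraries, and Cubn was higher in both knock-in libraries. The 12 blood and immune cell markers summed to 24.7 and 22.8 CPM in knock-in libraries, against 32.8 and 32.7 CPM in wild-type libraries. Cd68 made up most of that sum, with 15.3 and 13.1 CPM in knock-in libraries, against 19.8 and 22.1 CPM in wild-type libraries. The other 11 summed to 9.44 and 9.64 CPM in knock-in libraries, against 13.0 and 10.6 CPM in wild-type libraries. Of 5 tested markers 1 was lower, so the shares of the last 2 lists lay near that of all genes. None of these 12 was at 0 in all libraries, though Ptprc, the marker of all white blood cells, had 4 and 1 counts in knock-in libraries, against 6 and 4 counts in wild-type libraries. The part of such cell types in the values of those members that were lower in knock-in libraries was not tested, and other members were higher or overlapped. In RNA of whole cultures, fewer cells of a type and less RNA per cell cannot be told apart.

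Few other genes of the pathway passed either. Of 56 further interferon-stimulated genes, 32 were tested and 0 passed in edgeR with or without the GC correction, though 7 had an unadjusted p under 0.05 without it, all lower, beside 7.40% lower of all tested genes. Of the 32, 24 had a negative log2 fold change and 19 had both knock-in values below both wild-type values, beside the 23.9% of all genes given above. Their median log2 fold change was -0.30, and -0.18 with the GC correction. The most abundant were Pml, the organiser of nuclear bodies, with 225 and 242 CPM in knock-in libraries, against 231 and 273 CPM in wild-type libraries, and Rnf213, a large ubiquitin ligase, with 149 and 184 CPM in knock-in, against 205 and 195 CPM in wild-type libraries. Neither passed (edgeR adjusted p = 0.787 and 0.526).

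Of 35 further antigen presentation genes, 29 were tested, with a median log2 fold change of -0.12. None passed without the GC correction and 1 passed, lower, with it, beside 1.18% of all tested genes. It was H2-Eb1, a chain of MHC class II, with 2.46 and 2.84 CPM in knock-in libraries, against 6.28 and 8.81 CPM in wild-type libraries. Its log2 fold change was -1.51 (edgeR adjusted p = 0.127), and -1.37 with the GC correction (adjusted p = 0.0140). Class II molecules are known from antigen-presenting cells, and H2-Eb1 is no class I gene.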

How the data were processed

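RNA was measured in 4 libraries, 2 of the p300 knock-in line and 2 of the wild-type line. The authors deposited raw counts of reads per gene, 1 table per library. Per the submitters' processing notes, reads were trimmed with Trim Galore and aligned with STAR 2.5.3a to GRCm38 (mm10). The gene annotation release and its counting options are not given in the sources used here. The unstranded column was used, and the summary rows (unmapped, multimapping, ambiguous and unannotated reads), which held 15.8% to 18.0% of each library, stayed out of library sizes and tests. Of 54838 identifiers, 54809 matched GENCODE M21, with 99.9989% of the counts.

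Differences were tested with the quasi-likelihood F test of edgeR 4.0.16 in R 4.3.3, with TMM scaling, filterByExpr (minimum count 10), genotype as the only term, and Benjamini-Hochberg adjustment over all 15191 tested genes at 0.05. Each SE is the size of the log2 fold change over the root of its F statistic. TPM used the union of a gene's exons as length. The GC correction was a natural spline (5 degrees of freedom) of each library's deviation on transcript GC content, used as an offset. Tested members had a median transcript GC content of 53.1%, against 50% over all tested genes. No libraries were duplicates: counts differed by more than sampling noise in both pairs (chi-square per degree of freedom 5.71 for knock-in and 44.0 for wild-type).

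The members and the pathway and marker lists were chosen with earlier results of these data known. All 35 members were named. From each pathway list up to 6 genes past the threshold with or without the GC correction were named, or, where none passed, the 2 with the highest mean CPM and the 1 with the smallest unadjusted p. Ikbke, Nlrc5 and the other proteasome subunits were added after their values were seen. 1 gene is not reported here. Alternatives were DESeq2 size factors, no filter and a stricter filter, DESeq2 1.42.0, limma-voom (limma 3.58.1), the replicate number as a block, the GC correction, leaving out each library, and TPM from the longest transcript. The fitting procedure was tested on simulated counts. Promoter windows came from RefSeq (GRCm38.p6), and motifs were searched on both strands.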

Additional observations from a re-analysis of the deposited data

How the results depend on the processing

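The count of genes past the threshold, 10 in all and 0 members, moved with most settings. It was 354 genes and 2 members with no low-count filter, 180 genes and 1 member with the GC correction, 81 genes and 0 members with DESeq2, and 4 genes and 0 members with limma-voom. Over the fits that left out 1 library, with and without the GC correction, it lay between 16 and 5015 genes and between 0 and 11 members, and a lone library was then assumed to vary like the other group's pair. The median log2 fold change of the tested members, -0.08, was -0.30 with no filter and -0.27 with DESeq2, where all 35 members entered, and 0.084 with the GC correction; it lay between -0.17 and -0.0018 when a library was left out. DESeq2 size factors gave 13 genes and the stricter filter 11, with 0 members in both. The median TPM of 8.43 was 7.73 with the longest transcript as length.

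No label says that a replicate number marks a shared culture or day, and same-numbered libraries did not deviate together (correlation -0.12 over genes). With the replicate block 197 of 15191 genes and 1 of 24 members passed (Oas1a, edgeR adjusted p = 0.0440). With the block and the GC correction 404 of the 15191 genes and 2 of the 24 members passed (Oas1a and Bst2), with a median log2 fold change of 0.085. With the numbers crossed, a pairing chosen after seeing the data, 509 of the 15191 genes and 1 of the 24 members passed.

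Of the 24 tested members, 13 changed sign in some setting. In the TMM-scaled edgeR fit of all 4 libraries without the GC correction, none of these 13 had a log2 fold change beyond 0.37 in size. With the GC correction the log2 fold changes were 0.10 for Irf1, 0.082 for Adar, -0.21 for B2m and 0.086 for Tapbp, and with the block as well they were 0.10, 0.081, -0.21 and 0.090 for the same genes. Over the fits without 1 library the log2 fold change lay between -0.21 and 0.24 for Irf1, -0.17 and 0.15 for Adar, -0.34 and 0.19 for B2m, -0.25 and 0.24 for Tapbp, -0.027 and 0.33 for Ddx58, -0.12 and 0.77 for Eif2ak2, -0.0018 and 0.50 for Ifit2, -0.51 and 0.15 for Ifitm1, -0.60 and 0.11 for Ifitm2, -0.043 and 0.39 for Ifnar1, -0.12 and 0.35 for Irf3, -0.17 and 0.80 for Irf7, and -0.17 and 0.38 for Stat2. The cause was not tested. Depth limits the 11 members that failed the filter, whose counts were 0 to 18.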
